A study of Homo sapiens with 6 samples.

Results

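The 40 genes described here encode parts of the lysosome: 11 cathepsins, 17 other lysosomal hydrolases and hydrolase activators, 7 proteins of the lysosomal membrane or of cholesterol export, the 3 mucolipin channels, and the transcription factors TFEB and TFE3. They were taken by gene symbol from the deposited table of 57445 genes. All 40 were found, all had reads in all 6 libraries, and all passed the filter on low counts that left 17129 genes for testing. The cells were H358, an established human non-small cell lung cancer line that the labels list as epithelial, grown in RPMI with serum. WT was the parental line with wild-type BRMS1, and C1 and C2 were clones that the labels call isogenic and list with BRMS1v2 A273V/A273V. Each group had 2 libraries, numbered replicate 1 and 2, and each variant group is 1 clone, so features of a clone and of the variant cannot be told apart. How the clones were derived is not in the labels, nor whether the replicates are separate cultures, and the p-values then reflect only variation among these libraries, which may be technical.

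Lysosomes are acidic organelles in which hydrolases break down proteins, lipids, glycans and glycosaminoglycans that arrive by endocytosis and autophagy. Most of these enzymes are tagged with mannose 6-phosphate in the Golgi and sorted to the lysosome by receptors, a proton pump acidifies the lumen, and membrane proteins export the products and form the glycan-coated inner wall. TFEB and TFE3 enter the nucleus when mTORC1 is inactive and bind the E-box CACGTG, within a longer motif named CLEAR, in the promoters of many of these genes. In the alveolar epithelium, CTSH and the lysosome-related lamellar body take part in making mature surfactant proteins.

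Each library held from 27527867 to 37146270 reads in genes. Summed levels of 6 epithelial markers were 5150 to 5580 CPM (read counts relative to library size, scaled by TMM) in WT, 6340 to 7340 in C1 and 6080 to 6430 in C2. The 9 alveolar type II markers summed to 111 to 180 CPM in WT, 140 to 175 in C1 and 142 to 160 in C2, with most of it from NKX2-1 and SFTPB at 0 reads in 4 of the 6 libraries (LAMP3 is in that list too). Macrophages and osteoclasts are rich in lysosomes, so their markers bear on these genes. The 10 macrophage markers summed to 3.01 to 5.38 CPM in WT, 3.65 to 4.54 in C1 and 2.18 to 4.55 in C2, with MRC1 and TYROBP at 0 in every library. The 5 osteoclast markers summed to 22.5 to 23.3 CPM in WT, 21.5 to 27.5 in C1 and 21.3 to 30.0 in C2, most of it from ACP5 (CTSK, one of the 40 genes, is in that list too). The 8 fibroblast markers summed to 49.8 to 62.1, 39.5 to 70.2 and 44.8 to 71.0 CPM in the same order, most of it from COL1A1. In bulk RNA, fewer cells of a type and less RNA per cell cannot be told apart.

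Differences were tested by edgeR's quasi-likelihood test with Benjamini-Hochberg adjustment over all genes tested, and a gene is called at an adjusted p below 0.05. A difference is a log2 ratio, so 1 is a doubling. Without a term for the replicate number, no lysosome gene was called in C1 or in C2 (0.0117% of all genes tested were called in each), and 1, CTSH, was called in the mean of both clones against WT (0.198% of all genes, 0.0234% higher and 0.175% lower). Same-numbered libraries deviated together, so a second fit, which adds the replicate number as a block, is given beside this one and is named each time. With the block, 4 of the 40 rose and 4 fell in C1, 20% against 7.03% of all genes (2.96% higher and 4.07% lower). In C2, 2 rose and 3 fell with the block, 12.5% against 4.54% of all genes (1.94% higher and 2.59% lower). In the mean of the clones 10 rose and 6 fell, 40% against 9.74% of all genes (4.12% higher and 5.63% lower). Among the 12682 genes with a level at least that of the lowest lysosome gene, the called shares were 7.01%, 4.43% and 9.75%. CD63, CTSD, CTSH and MCOLN3 were called in both clones with the block. How many of all genes tested were called in both was not counted. The comparisons of C1, of C2 and of their mean share the WT libraries and are not independent of each other.

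**Figure D1:**
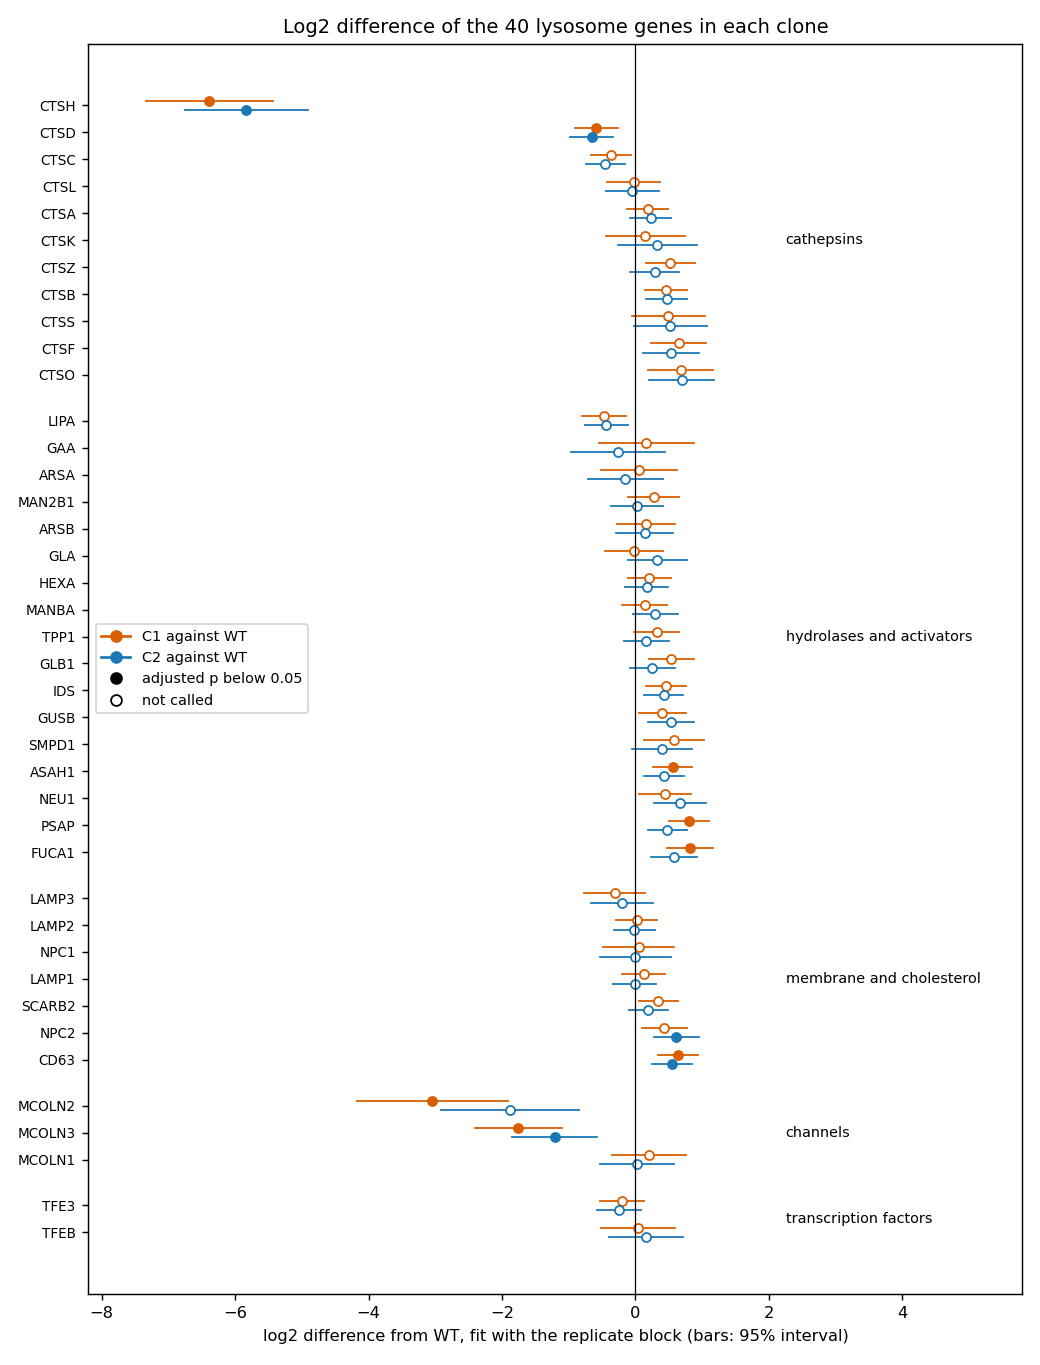
Log2 difference of each of the 40 lysosome genes from WT in the fit with the replicate block, C1 in orange and C2 in blue, with unadjusted 95% intervals, grouped by role. Filled points have an adjusted p below 0.05: 8 in C1 and 5 in C2. CTSH, MCOLN2 and MCOLN3 lie to the far left, and the other genes lie within 1 log2 unit of WT.

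The median difference of the 40 genes with the block was 0.193 in C1 and 0.179 in C2, against -0.012 and -0.001 over all genes tested. In C1, 30 genes had a positive difference and 10 a negative one, and in C2 26 and 14. Both C1 libraries lay above both WT libraries for 13 of the 40 genes (17.5% of all genes) and below both for 7 (17.6% of all genes). In C2 the same counts were 8 (17.5% of all genes) and 7 (17.3% of all genes). Summed over the 40 genes, the level was 5713 and 6365 CPM in the WT libraries, 6513 and 8106 in those of C1, and 5965 and 7589 in those of C2. Replicate 2 was the higher library in each group. Both C1 libraries lay above both WT libraries, and C2 overlapped WT and C1. The 11 cathepsins together held 2311 and 2307 CPM in the WT libraries, 2095 and 2192 in those of C1, and 1929 and 2255 in those of C2, so their sum was lower in all 4 clone libraries than in either WT library. CTSD, the largest part of that sum in WT, went from 854.5 and 848.6 CPM there to 500.3 and 648.1 in C1 and 476 and 617.7 in C2. With the block, 7 of the 11 cathepsins had a positive difference and 4 a negative one in each clone. Without either C2 library, the fit with the block called CTSH alone among these genes, in C1, in C2 and in their mean. C2 is then 1 library. Every fit with the block that leaves out 1 library has 1 group with a single library and 1 residual degree of freedom. Why fewer genes were called without a C2 library than without a WT or C1 library was not tested.

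**Figure D2:**
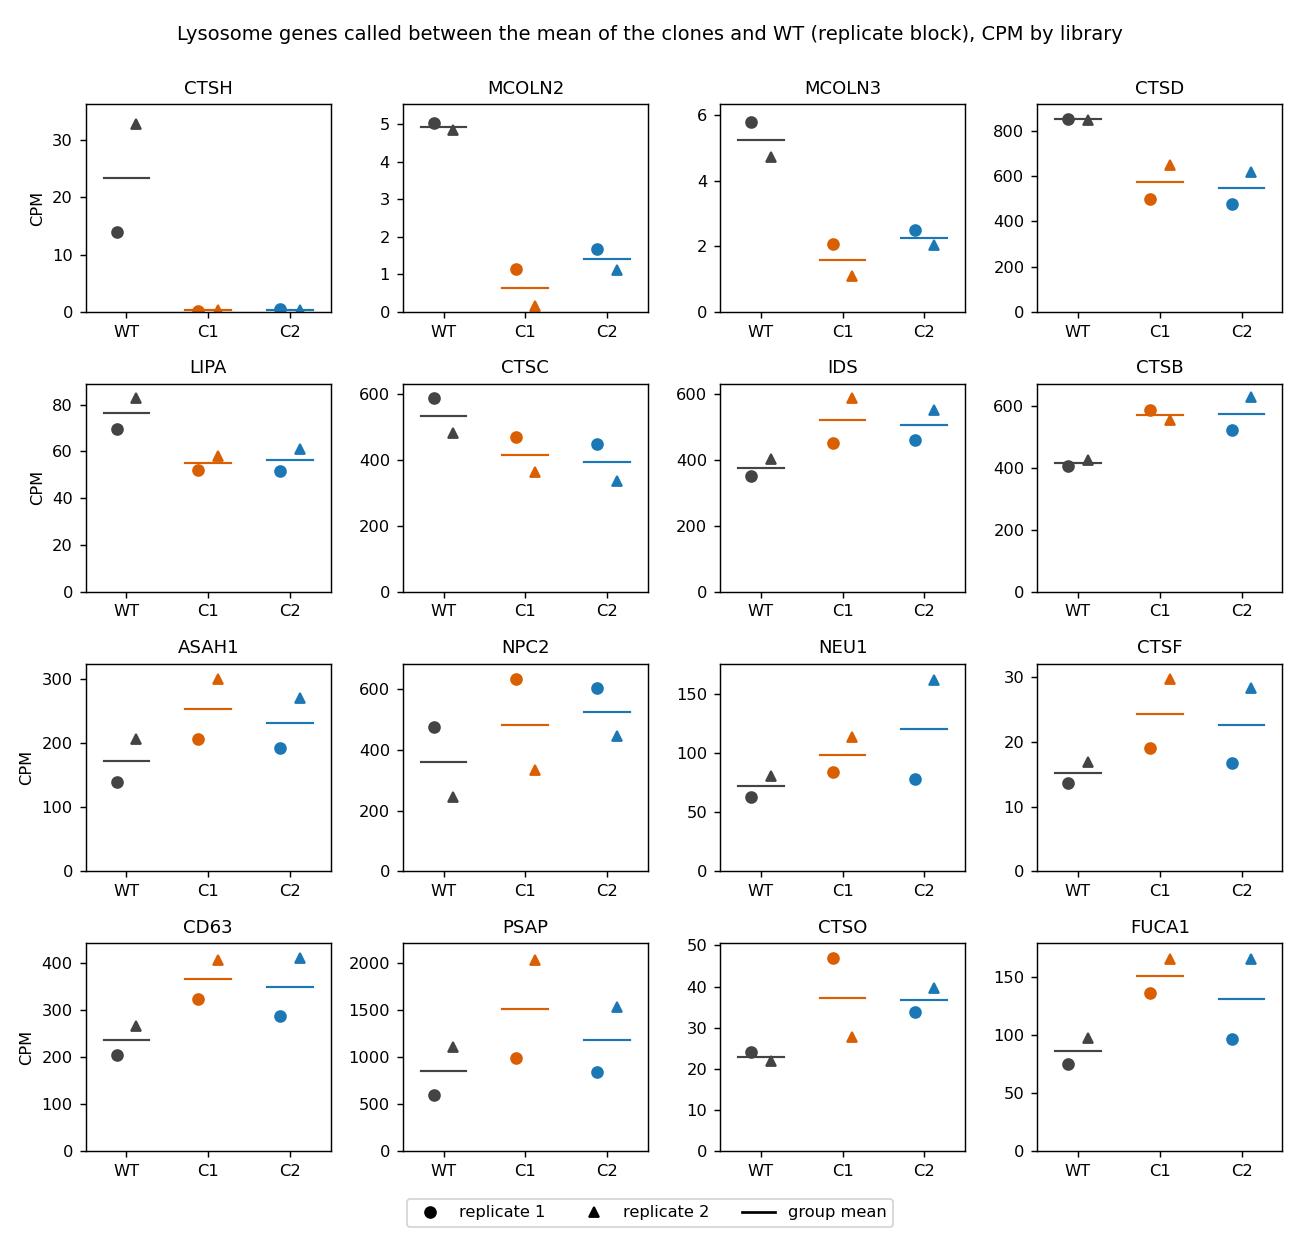
CPM of the 16 lysosome genes called with the replicate block in the mean of the clones against WT, 1 panel per gene with its own axis from 0, circles for replicate 1, triangles for replicate 2 and lines for group means. CTSH is near 0 in all 4 clone libraries, CTSD lies at 849 and 855 CPM in WT and at 476 to 648 CPM in the clone libraries, and PSAP shows a gap between replicate numbers in every group.

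Cathepsins are the lysosomal proteases. CTSH, CTSB, CTSC, CTSF, CTSK, CTSL, CTSO, CTSS and CTSZ are cysteine proteases of the papain type, CTSD is an aspartic protease and CTSA a serine carboxypeptidase that also protects other lysosomal enzymes. With the block, CTSH and CTSD fell in both clones, and CTSC also fell in the mean of the clones. CTSB, CTSF and CTSO rose in the mean of the clones and were not called in either clone alone.

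CTSH, an aminopeptidase with a part in maturing surfactant protein B and C, was nearly absent from both clones. It had 435 and 976 reads in the WT libraries, 6 and 11 in those of C1, and 14 and 9 in those of C2. The levels were 13.9 and 32.8 CPM in the WT libraries, 0.17 and 0.367 in those of C1, and 0.491 and 0.279 in those of C2, so the WT libraries, which themselves differed, were far above all 4 clone libraries. The mean of C1 was 1.15% of the WT mean and that of C2 1.65%. Without the block the difference was -6.44 in C1 (SE 0.68, adjusted p 0.119) and -5.92 in C2 (SE 0.65, adjusted p 0.15), and only the mean of the clones passed, at -6.18 (SE 0.49, adjusted p 0.0278). That call was lost when any 1 library was left out, with adjusted p from 0.0669 to 0.242. With the block CTSH passed in C1 at -6.39 (SE 0.44, adjusted p 1.19e-05), in C2 at -5.83 (SE 0.42, adjusted p 2.39e-05) and in their mean at -6.11 (SE 0.32, adjusted p 7.65e-07), and it passed in each of the 6 fits that left out 1 library, with highest adjusted p of 0.00639, 0.0414 and 0.00359.

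The 250 bases upstream of the CTSH start in RefSeq (GRCh38.p14, chr15:78945047-78945296, minus strand) are shown because CTSH has the largest difference of the 40 genes. They hold no CACGTG. The window from 250 bases before to 50 after the start has 37 CpG dinucleotides and 73.3% G and C, against medians of 14 and 58.7% over all RefSeq windows of that length.
CTSH: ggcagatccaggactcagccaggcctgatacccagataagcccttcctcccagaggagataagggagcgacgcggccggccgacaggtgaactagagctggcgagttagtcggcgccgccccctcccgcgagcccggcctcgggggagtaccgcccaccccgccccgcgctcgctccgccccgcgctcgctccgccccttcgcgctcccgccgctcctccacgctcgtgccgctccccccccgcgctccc

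The genes beside CTSH on chromosome 15 were examined after the values of CTSH were seen. In the gene order of GENCODE 29, MORF4L1 lies on one side and was at 110% of the WT mean in C1 and 107% in C2. Next after MORF4L1 comes ADAMTS7, which had 26 reads in WT, 2 in C1 and 3 in C2, and was called with the block in C1 (adjusted p 0.0277) and not in C2 (adjusted p 0.0591). On the other side lies RASGRF1, a guanine nucleotide exchange factor, with 46 reads in WT and 0 in all 4 clone libraries. At a floor of 3 counts over a group, RASGRF1 was at least 16.4-fold lower than WT in C1. In C2 it was at least 15.3-fold lower, with adjusted p of 0.00273 and 0.00402 with the block and 0.212 and 0.298 without it. ANKRD34C had 1 read in all and could not be tested, and TMED3 beyond it was at 110% and 116% of WT. MORF4L1 and TMED3 were not called in either clone. Beyond ADAMTS7, CHRNB4 was at 61.8% and 37.1% of the WT mean, CHRNA3 at 70.0% and 83.2%, and CHRNA5 at 54.7% and 70.9%. CHRNA5 was called with the block in C1 (-0.958, adjusted p 0.0271) and not in C2 (adjusted p 0.2), and CHRNB4 and CHRNA3 in neither. Beyond TMED3, KIAA1024 was at 131% and 116% and MTHFS at 91.7% and 88.3%, neither called.

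**Figure D3:**
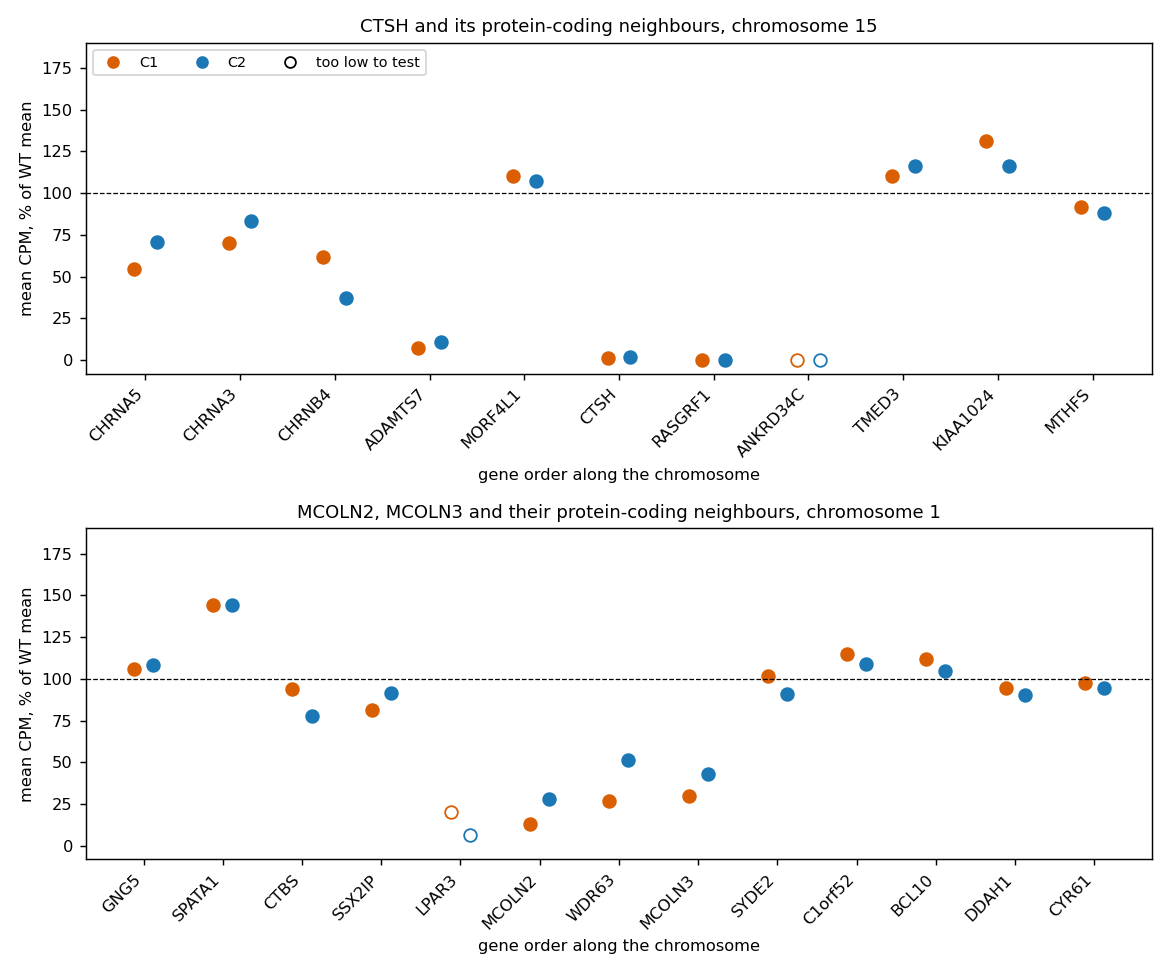
Mean CPM in C1 (orange) and C2 (blue) as a percent of the WT mean for CTSH and its protein-coding neighbours (top) and for MCOLN2, MCOLN3 and theirs (bottom), in gene order with no scale of distance. Open circles are genes too low to test, and the dashed line is the WT mean. CTSH and RASGRF1 sit at or near 0% between MORF4L1 and TMED3, and MCOLN2, WDR63 and MCOLN3 sit together at 13.1% to 51.5%.

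CTSD, the main aspartic protease of the lysosome, was the most abundant cathepsin per exon length in each group. It had 854 and 849 CPM in the WT libraries, 500.3 and 648 in those of C1, and 476 and 618 in those of C2, so the 4 clone libraries lay below both WT libraries, which were close to each other. Replicate 1 was the lower library in both clones. The difference was -0.58 (SE 0.15, adjusted p 0.032) in C1, -0.66 (SE 0.15, adjusted p 0.0252) in C2 and -0.62 (SE 0.13, adjusted p 0.00816) in their mean with the block, and -0.57 and -0.64 without it (adjusted p 0.623 and 0.697). With the block, CTSD was not called in C1 without WT replicate 1 (adjusted p 0.249), C1 replicate 1 (0.125), C2 replicate 1 (0.154) or C2 replicate 2 (0.144). Its call in C2 was lost without WT replicate 1 (0.17) and without C2 replicate 1 or 2 (0.416 and 0.406), and that in the mean in the same settings (0.138, 0.15 and 0.108).

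CTSC, a dipeptidyl peptidase that activates granule serine proteases, stood at 588 and 482 CPM in the WT libraries, 470.0 and 362 in those of C1, and 450.0 and 337 in those of C2. All 4 clone libraries were below both WT libraries, and replicate 2 was below replicate 1 in each group. With the block CTSC fell in the mean of the clones (-0.41 (SE 0.12, adjusted p 0.0426)) and was not called in C1 (-0.37 (adjusted p 0.132)) or C2 (-0.45 (adjusted p 0.0828)). CTSC and CTSF both lie between BRMS1 and the end of the long arm of chromosome 11, while CTSD, SMPD1 and TPP1 lie on the other side of BRMS1. The 407 tested genes of that stretch, which was chosen after its values were seen, had median differences with the block of -0.39 in C1 and -0.35 in C2, against -0.06 and -0.04 for the 486 on the other side. CTSF, a cysteine protease with a long inhibitory propeptide, went the other way from that stretch, with 13.7 and 16.8 CPM in the WT libraries, 19.0 and 29.8 in those of C1, and 16.8 and 28.4 in those of C2. It rose in the mean of the clones with the block (0.59 (SE 0.17, adjusted p 0.0479)), and C2 replicate 1 lay among the WT libraries.

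CTSB, an abundant endopeptidase and dipeptidyl carboxypeptidase, had 407 and 425 CPM in the WT libraries, 587 and 555 in those of C1, and 523 and 628 in those of C2. CTSO, a low-abundance papain-type protease, had 24.1 and 21.8 CPM in the WT libraries, 46.8 and 27.6 in those of C1, and 33.7 and 39.7 in those of C2. For both genes all clone libraries lay above both WT libraries. With the block CTSB rose in the mean of the clones by 0.46 (SE 0.13, adjusted p 0.0357) and CTSO by 0.69 (SE 0.20, adjusted p 0.0491), and neither was called in C1 (0.075 and 0.0947) or C2 (0.0881 and 0.108). These mean calls were close to the threshold: CTSB was lost without either WT library (adjusted p 0.0889 and 0.129) or either C2 library (0.126 and 0.238), and CTSO without any library but C1 replicate 2 (0.0823 to 0.328). CTSC was lost without either WT library (0.0909 and 0.259) or either C2 library (0.177 and 0.217), and CTSF without WT replicate 2 (0.311), C1 replicate 2 (0.0609) or either C2 library (0.176 and 0.295).

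The other 5 cathepsins were not called in either clone or in the mean of the clones. CTSZ, a carboxypeptidase, had 90.6 and 93.8 CPM in the WT libraries, 104 and 168 in those of C1, and 98.6 and 129.9 in those of C2, and CTSS, best known from antigen-presenting cells, had 38.6 and 46.2 CPM in the WT libraries, 69.5 and 48.4 in those of C1, and 48.8 and 73.6 in those of C2. Both were above both WT libraries in all 4 clone libraries, with differences in the mean of the clones of 0.40 (adjusted p 0.106) and 0.51 (adjusted p 0.181) with the block. CTSA stood at 162 and 148 CPM in the WT libraries, 172 and 179 in those of C1, and 186 and 176 in those of C2, also above WT in all 4 clone libraries, with a difference of 0.21 (adjusted p 0.338). CTSK, the collagen-degrading cathepsin of osteoclasts, was the lowest cathepsin per exon length in WT and had 7.48 and 4.54 CPM in the WT libraries, 7.54 and 5.68 in those of C1, and 6.70 and 7.95 in those of C2, and its groups overlapped. CTSL, an endopeptidase that is abundant in many cells, ranged over the replicates rather than the groups, with 111 and 188 CPM in the WT libraries, 118 and 168 in those of C1, and 87.9 and 217 in those of C2 and a difference in the mean of the clones of -0.04 (adjusted p 0.91).

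Among the 17 other hydrolases and activators, FUCA1, PSAP and ASAH1 rose in C1 with the block, and none was called in C2. In the mean of the clones FUCA1, PSAP, ASAH1, NEU1 and IDS rose and LIPA fell. The median difference over the 17 genes was 0.321 in C1 and 0.295 in C2, with 15 and 14 positive.

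PSAP encodes the precursor of the saposins, small proteins that present sphingolipids to their hydrolases, and was among the most abundant of the 40 genes per exon length. It had 598 and 1107 CPM in the WT libraries, 989 and 2032 in those of C1, and 835 and 1536 in those of C2. Within each replicate number both clones lay above WT, but the groups overlapped, since WT replicate 2 was above replicate 1 of both clones. The difference was 0.80 (SE 0.14, adjusted p 0.0038) in C1, 0.48 (SE 0.14, adjusted p 0.0695) in C2 and 0.64 (SE 0.12, adjusted p 0.00568) in their mean with the block, and 0.65 (adjusted p 0.721) in the mean without it. FUCA1, which removes fucose from glycoproteins and glycolipids, stood at 74.6 and 97.3 CPM in the WT libraries, 136 and 166 in those of C1, and 96.4 and 166 in those of C2. It rose in C1 (0.82 (SE 0.16, adjusted p 0.00802)), was not called in C2 (0.58 (adjusted p 0.0591)), rose in the mean (0.70 (SE 0.14, adjusted p 0.00798)), and C2 replicate 1 lay among the WT libraries. ASAH1, the acid ceramidase, had 139 and 205 CPM in the WT libraries, 206 and 299.7 in those of C1, and 192 and 270.1 in those of C2, with C1 above WT in both libraries and C2 overlapping WT. Its difference was 0.56 (SE 0.14, adjusted p 0.0275) in C1, 0.43 (adjusted p 0.1) in C2 and 0.49 (SE 0.12, adjusted p 0.0221) in their mean. PSAP and FUCA1 were lost in C1 without C2 replicate 1 (adjusted p 0.0674 and 0.0655) or C2 replicate 2 (0.0569 and 0.0633), and ASAH1 was lost in C1 without any 1 library (0.0536 to 0.123). The mean call of ASAH1 was lost without either WT library (0.0855 and 0.0641) or either C2 library (0.146 and 0.155).

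NEU1, the lysosomal sialidase, had 62.9 and 81.0 CPM in the WT libraries, 83.8 and 114 in those of C1, and 78.3 and 163 in those of C2, with C2 replicate 2 the highest library. It rose in the mean of the clones with the block (0.56 (SE 0.16, adjusted p 0.0438)), and its difference was 0.45 (adjusted p 0.164) in C1 and 0.67 (adjusted p 0.0556) in C2. IDS, which removes sulfate from dermatan and heparan sulfate, had 351 and 400.5 CPM in the WT libraries, 452 and 587 in those of C1, and 458 and 549.6 in those of C2, all 4 clone libraries above both WT libraries, and a difference of 0.44 (SE 0.12, adjusted p 0.0375) in the mean. LIPA, the acid lipase that splits cholesteryl esters and triglycerides, was the single hydrolase that fell, with 69.5 and 83.0 CPM in the WT libraries, 52.1 and 57.9 in those of C1, and 51.7 and 61.1 in those of C2. All 4 clone libraries were below both WT libraries, and the difference was -0.45 (SE 0.13, adjusted p 0.0424) in the mean, -0.47 (adjusted p 0.0825) in C1 and -0.44 (adjusted p 0.127) in C2. LIPA overlaps the interferon-induced gene IFIT2 on the other strand. Since no strand setting is given, reads of the 2 genes cannot be told apart where they overlap. The same limit holds for ASAH1, CD63, CTSA, CTSD, GLB1, HEXA, IDS, MAN2B1, MANBA, MCOLN1, NPC1, NPC2 and TPP1, which also overlap other annotated genes. For CTSD, GLB1, HEXA, IDS, MAN2B1 and MCOLN1 these include a protein-coding gene on the same strand. What part of their reads falls in the overlaps was not tested. IFIT2 had 32.5 and 43.9 CPM in the WT libraries, 25.6 and 15.1 in those of C1, and 21.7 and 30.0 in those of C2, and was not called in C1 or C2 (adjusted p 0.133 and 0.362 with the block). The mean calls of NEU1, IDS and LIPA were lost without WT replicate 2 (adjusted p 0.253, 0.225 and 0.156) or either C2 library (0.0847 to 0.281), those of IDS and LIPA also without WT replicate 1 (0.0662 and 0.078), and that of LIPA without C1 replicate 2 (0.0983).

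GUSB, a beta-glucuronidase, GLB1, a beta-galactosidase, SMPD1, the acid sphingomyelinase, MANBA, a beta-mannosidase, and GLA, an alpha-galactosidase, were not called against WT. GUSB stood at 76.1 and 41.3 CPM in the WT libraries, 96.5 and 57.4 in those of C1, and 94.7 and 69.0 in those of C2, with a difference in the mean of the clones of 0.47 (adjusted p 0.0544) with the block. GLB1 stood at 89.5 and 124 CPM in the WT libraries, 109.5 and 213 in those of C1, and 100.3 and 158 in those of C2, a difference of 0.40 (adjusted p 0.0895). For both genes the clones overlapped WT. SMPD1 had 9.75 and 13.9 CPM in the WT libraries, 13.1 and 23.2 in those of C1, and 11.1 and 21.3 in those of C2, with 0.49 (adjusted p 0.112) in the mean. MANBA had 34.0 and 47.8 CPM in the WT libraries, 38.0 and 51.8 in those of C1, and 41.4 and 59.0 in those of C2, with 0.22 (adjusted p 0.364). GLA had 24.1 and 15.4 CPM in the WT libraries, 26.2 and 13.6 in those of C1, and 26.5 and 21.9 in those of C2, with 0.16 (adjusted p 0.645). In these 3 genes as well, the clones overlapped WT. IDS and GUSB have related pseudogenes in the genome, so the split of their reads is uncertain.

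The 6 hydrolases that were called in no comparison with all 6 libraries were GAA, HEXA, ARSA, ARSB, MAN2B1 and TPP1. GAA, which degrades glycogen, averaged 145, 179.7 and 132 CPM in WT, C1 and C2, and TPP1, a tripeptidyl peptidase, 68.4, 86.6 and 76.8. HEXA, a hexosaminidase subunit, averaged 59.8, 68.8 and 67.2 CPM, and MAN2B1, an alpha-mannosidase, 27.5, 33.4 and 28. The arylsulfatases ARSA and ARSB averaged 17.9, 19.7 and 16.9, and 14.0, 15.6 and 15.4 CPM. With LAMP2, LAMP3 and MCOLN1, which were also not called, their differences with the block lay between -0.31 and 0.32 in C1 and between -0.26 and 0.17 in C2.

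Of the 7 membrane and cholesterol genes, CD63 rose in both clones and NPC2 in C2 with the block, and both rose in the mean of the clones. CD63, a tetraspanin of late endosomes and of vesicles released from them, had 204 and 266 CPM in the WT libraries, 323 and 405 in those of C1, and 286 and 409 in those of C2. Its 4 clone libraries lay above both WT libraries, with differences of 0.63 (SE 0.14, adjusted p 0.0156) in C1 and 0.55 (SE 0.14, adjusted p 0.0403) in C2, and 0.59 (SE 0.12, adjusted p 0.00895) in their mean. In C1 and C2 without the block they were 0.63 (adjusted p 0.635) and 0.56 (adjusted p 0.789). NPC2, the soluble protein that hands cholesterol to NPC1, stood at 474 and 246 CPM in the WT libraries, 633 and 335 in those of C1, and 605 and 445 in those of C2, so the groups overlapped and replicate 1 was the higher library in each. Within each replicate number both clones lay above WT. The difference was 0.61 (SE 0.16, adjusted p 0.0446) in C2, 0.43 (adjusted p 0.123) in C1 and 0.52 (SE 0.14, adjusted p 0.0314) in their mean. CD63 was lost in C1 without C2 replicate 1 or 2 (adjusted p 0.0982 and 0.0932) and in C2 without WT replicate 1 or 2 (0.0576 and 0.0972) or C2 replicate 1 or 2 (0.28 and 0.586). The C2 call of NPC2 was lost when WT replicate 2 (0.172) or either C2 library (0.217 and 0.682) was left out, and its mean call in the same settings (0.214, 0.09 and 0.23).

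NPC1, the membrane protein that exports cholesterol from the lysosome, had 70.8 and 160.5 CPM in the WT libraries, 108 and 112 in those of C1, and 87.6 and 134 in those of C2, so WT replicate 2 was the highest library and WT replicate 1 the lowest. Its difference in the mean of the clones was 0.02 (adjusted p 0.962) with the block. SCARB2, the receptor that carries glucocerebrosidase to the lysosome, had 273.2 and 363 CPM in the WT libraries, 339 and 471 in those of C1, and 306 and 422 in those of C2, with 0.27 (adjusted p 0.186). LAMP1, with LAMP2 the main glycoprotein of the lysosomal membrane, had 210.2 and 142 CPM in the WT libraries, 198 and 179 in those of C1, and 197 and 149.9 in those of C2, with 0.06 (adjusted p 0.833). In NPC1, SCARB2 and LAMP1 the clones overlapped WT. LAMP2 averaged 198, 199 and 195 CPM in WT, C1 and C2, and LAMP3, found in dendritic cells and type II cells, 15.2, 12.3 and 13.4.

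The mucolipins are cation channels of endosomes and lysosomes, and MCOLN1 releases lysosomal calcium. MCOLN2 and MCOLN3 fell in C1 with the block, MCOLN3 also in C2, and both in the mean of the clones, whereas MCOLN1 averaged 8.71, 10.4 and 9.03 CPM in WT, C1 and C2 and was not called. MCOLN2 had 157 and 144 reads in the WT libraries, 40 and 5 in those of C1, and 48 and 36 in those of C2, or 5.02 and 4.85 CPM in the WT libraries, 1.13 and 0.167 in those of C1, and 1.68 and 1.11 in those of C2. MCOLN3 had 181 and 140 reads in the WT libraries, 73 and 33 in those of C1, and 71 and 66 in those of C2, or 5.79 and 4.71 CPM in the WT libraries, 2.06 and 1.10 in those of C1, and 2.49 and 2.04 in those of C2. For both genes every clone library was below every WT library, and C1 replicate 2 was the lowest of all. The difference of MCOLN2 was -3.05 (SE 0.50, adjusted p 0.00711) in C1 and -1.88 (SE 0.46, adjusted p 0.0521) in C2 with the block, and -2.90 (adjusted p 0.409) and -1.82 (adjusted p 0.732) without it. That of MCOLN3 was -1.76 (SE 0.30, adjusted p 0.00382) in C1 and -1.21 (SE 0.29, adjusted p 0.0354) in C2 with the block, and -1.72 (adjusted p 0.332) and -1.21 (adjusted p 0.663) without it. In the mean of the clones with the block, MCOLN2 was at -2.46 (SE 0.39, adjusted p 0.00431) and MCOLN3 at -1.48 (SE 0.25, adjusted p 0.00223). In C1 both calls were lost without C2 replicate 1 (adjusted p 0.0848 and 0.0722) or C2 replicate 2 (0.0765 and 0.0663). The C2 call of MCOLN3 was lost when WT replicate 2 (0.0826) or either C2 library (0.424 and 0.509) was left out.

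MCOLN2 and MCOLN3 lie close together on chromosome 1, and this stretch was looked at after their values were seen. WDR63, between them in the gene order, was at 26.8% of the WT mean in C1 and 51.5% in C2 from 27, 8 and 14 reads in WT, C1 and C2, and was not called (adjusted p 0.11 and 0.445 with the block). LPAR3, before MCOLN2, had 17, 4 and 1 reads and was too low to test. The next genes outward, SSX2IP at 81.2% and 91.4% of WT and SYDE2 at 102% and 90.7%, were not called.

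TFEB and TFE3, the transcription factors of lysosome genes, were not called in any comparison. TFEB had 6.91 and 7.40 CPM in the WT libraries, 5.68 and 9.62 in those of C1, and 5.86 and 10.9 in those of C2, so replicate 1 and replicate 2 of both clones lay on opposite sides of WT. Its difference was 0.04 in C1 with the block (95% interval -0.52 to 0.59), and that in C2 was 0.16 (-0.40 to 0.71). TFE3 had 73.0 and 89.3 CPM in the WT libraries, 67.4 and 73.0 in those of C1, and 65.4 and 70.8 in those of C2, with -0.20 in C1 (-0.53 to 0.12) and -0.25 in C2 (-0.57 to 0.08). Transcript levels do not report where these proteins are in the cell.

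The promoters of 28 of the 40 genes were found in the RefSeq table (GRCh38.p14), in 41 windows from 250 bases before to 50 after a start. The palindrome CACGTG was in a window of 9 genes: ARSB, CD63, CTSA, CTSD, CTSF, GAA, LAMP1, MCOLN1 and NEU1. By window, 9 of the 41 held it, against 7.26% of all 35116 windows. TCACGTG, the core of CLEAR, searched on both strands and always containing CACGTG, was in 8 of these genes, all but CD63. By window it was in 8 of the 41, against 3.71% of all windows. TCACGTGA, a longer form that contains TCACGTG, was in CTSA, GAA, LAMP1 and MCOLN1, in 4 of the 41 windows against 0.98% of all windows. The full 10-base palindrome of CLEAR, which contains TCACGTGA, was in GAA and MCOLN1, in 2 of the 41 windows against 0.353% of all windows. Of the 8 genes with TCACGTG, 2 rose and 1 fell in the mean of the clones with the block, with a median difference of 0.13. Of the 20 genes with a window and no TCACGTG, 4 rose and 4 fell, with a median of 0.20. PSAP, CTSB, ASAH1 and CTSO, which rose in the mean, and MCOLN2, which fell, had no window and are in neither set. A match is a description of these letters and is not evidence of binding.

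The 250 bases upstream of 4 starts are shown for genes that were called in the mean of the clones, with CACGTG in capitals: CTSD, which fell and holds 1 copy beginning 47 bases before the start, CTSF and NEU1, which rose and hold 2 copies (123 and 51 bases before) and 1 copy (126 bases before), and MCOLN3, which fell and holds none. All are from the minus strand of GRCh38.p14, at chr11:1763928-1764177, chr11:66568607-66568856, chr6:31862822-31863071 and chr1:85048501-85048750.
CTSD: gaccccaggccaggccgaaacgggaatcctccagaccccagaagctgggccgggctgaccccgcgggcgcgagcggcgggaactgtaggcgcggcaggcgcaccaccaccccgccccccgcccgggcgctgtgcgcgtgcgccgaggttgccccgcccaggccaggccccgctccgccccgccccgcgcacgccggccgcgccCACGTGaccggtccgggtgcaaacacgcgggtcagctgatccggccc
CTSF: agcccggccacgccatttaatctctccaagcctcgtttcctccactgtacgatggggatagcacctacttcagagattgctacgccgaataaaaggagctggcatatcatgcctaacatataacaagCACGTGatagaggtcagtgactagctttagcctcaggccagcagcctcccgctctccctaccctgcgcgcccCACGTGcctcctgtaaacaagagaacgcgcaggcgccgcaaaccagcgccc
NEU1: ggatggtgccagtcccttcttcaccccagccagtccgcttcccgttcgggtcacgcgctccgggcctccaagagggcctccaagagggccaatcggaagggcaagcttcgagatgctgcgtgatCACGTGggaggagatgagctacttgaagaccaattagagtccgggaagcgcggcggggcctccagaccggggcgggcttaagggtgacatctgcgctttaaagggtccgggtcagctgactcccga
MCOLN3: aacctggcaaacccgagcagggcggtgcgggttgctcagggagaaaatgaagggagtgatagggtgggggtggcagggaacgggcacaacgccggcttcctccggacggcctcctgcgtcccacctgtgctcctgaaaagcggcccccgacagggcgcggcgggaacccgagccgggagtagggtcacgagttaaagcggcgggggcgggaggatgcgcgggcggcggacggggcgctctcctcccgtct

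Sums over genes, the parts of single genes in them and the level cut-off for called shares are in CPM without a length scale. Otherwise levels of different genes were compared per exon length, as CPM per kb of GENCODE 29 exons. On that scale CTSD was the highest of the 40 genes in WT at 272 CPM per kb, followed by PSAP at 263, NPC2 at 131 and CD63 at 89.3. In C1 the order at the top changed to PSAP at 466 and CTSD at 184, and in C2 to PSAP at 366, NPC2 at 191 and CTSD at 175. The ranges of PSAP and CTSD overlapped between libraries in WT, so these neighbours in the order did not differ beyond their spread. The lowest in WT were MCOLN3 at 0.793 and TFEB at 1.27 CPM per kb. In both clones the lowest was CTSH, at 0.0456 in C1 and 0.0653 in C2 from 3.97 in WT, where MANBA and LAMP3 were its neighbours in the order. Without the length scale, the median level of the 40 genes was 75.2 CPM, against 17.1 CPM over all genes tested.

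**Figure D4:**
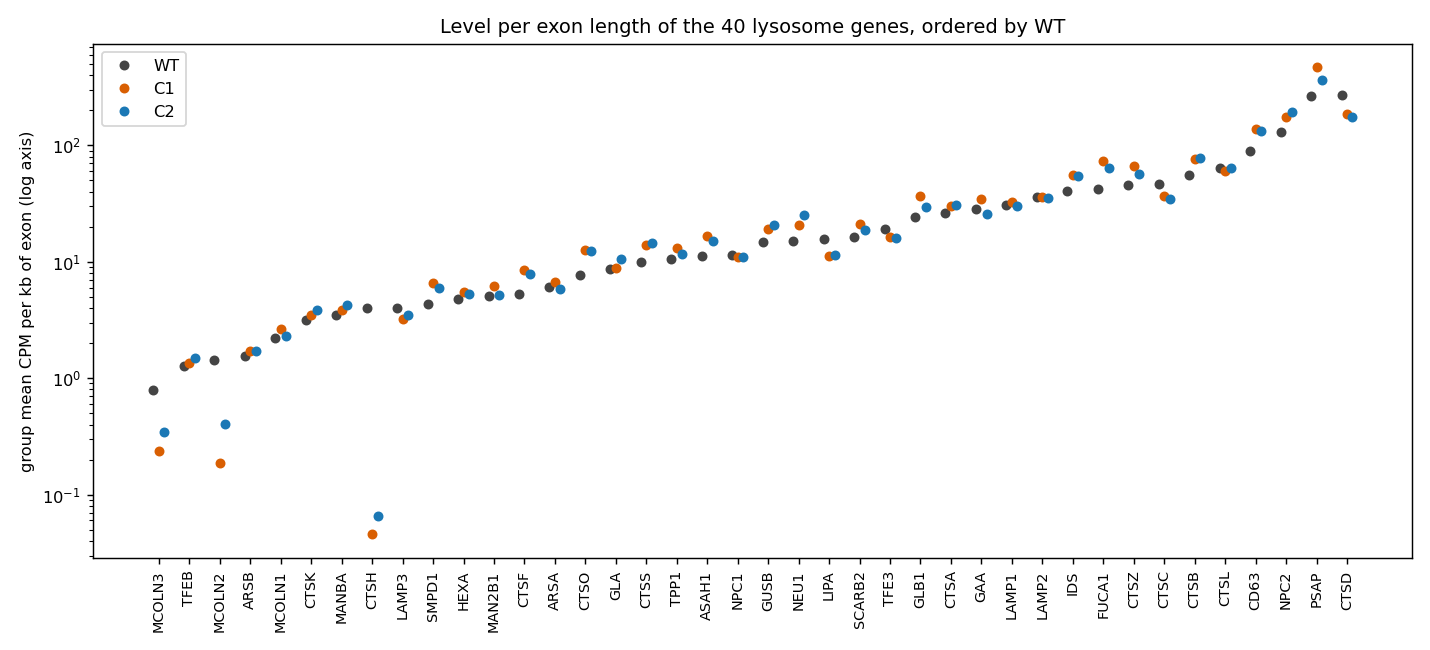
Mean level of each of the 40 lysosome genes in WT (grey), C1 (orange) and C2 (blue), in CPM per kb of exon on a log axis, ordered by the WT level. The genes span from 0.793 to 272 CPM per kb in WT, and CTSH, MCOLN2 and MCOLN3 are the genes whose clone points fall far below the WT point.

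No lysosome gene was called between the clones, with or without the block (0% of all genes tested). Without the block, the count at an unadjusted p below 0.05 was 0 of the 40 genes and 61 of all genes, and DESeq2 also called 0 of the 40. The largest difference of C2 from C1 with the block was that of MCOLN2, 1.17 (95% interval -0.02 to 2.35), where C1 replicate 2 held 5 reads. Next came CTSH at 0.55 (-0.74 to 1.85), from 17 reads in C1 and 23 in C2, and MCOLN3 at 0.55 (-0.13 to 1.22). On the negative side were GAA at -0.43 (-1.13 to 0.27) and PSAP at -0.32 (-0.62 to -0.03). With the block and without C1 replicate 1, MCOLN2, at 2.86 (adjusted p 0.00214), and GAA, at -0.75 (adjusted p 0.0138), were called between the clones, with 343 of all genes.

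The lysosome genes also differed between the replicate numbers. In the fit with the group as a term, 12 of the 40 were higher and 5 lower in replicate 2, 42.5% against 24.7% of all genes (12.5% higher and 12.2% lower), and among genes at the level of these 27.5% were called. Replicate 2 was above replicate 1 in all 3 groups for 18 genes (28.2% of all genes) and below it in all 3 for 9 (28.3% of all genes). PSAP rose most, at 0.94 (SE 0.11, adjusted p 9.75e-05), followed by CTSL (0.85 (adjusted p 0.00182)), SMPD1 (0.76 (adjusted p 0.00605)) and GLB1 (0.69 (adjusted p 0.00192)). NEU1, NPC1, CTSF, ASAH1, MANBA, FUCA1, SCARB2 and CD63 rose by 0.41 to 0.62. NPC2 fell most, at -0.77 (SE 0.13, adjusted p 0.00095), followed by GUSB (-0.69 (adjusted p 0.00219)), GLA (-0.62 (adjusted p 0.0166)), LAMP1 (-0.37 (adjusted p 0.0433)) and CTSC (-0.36 (adjusted p 0.0317)). TFEB, at 0.58 (adjusted p 0.0589), and CTSH, at 0.84 (adjusted p 0.103), did not pass. Of the 16 genes called in the mean of the clones with the block, 8 were also called between replicate numbers, as were 42.5% of all 40. The same overlap was not counted over all genes tested.

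**Figure D5:**
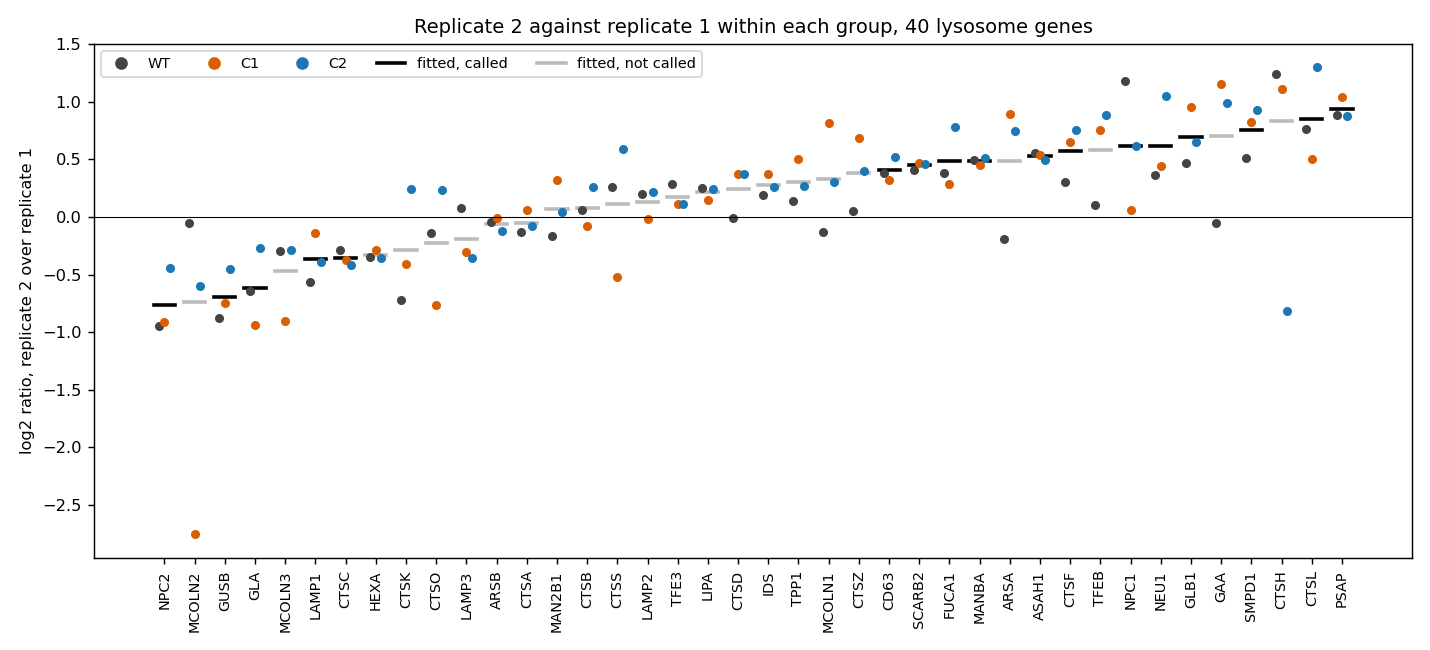
Log2 ratio of CPM in replicate 2 over replicate 1 within WT (grey), C1 (orange) and C2 (blue) for the 40 lysosome genes, ordered by the fitted difference, with the fitted difference as a black bar where its adjusted p is below 0.05 and grey otherwise. NPC2, GUSB and GLA lie below 0 and PSAP, CTSL and SMPD1 above 0 in all 3 groups, while CTSH has 2 groups above 0 and 1 below.

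All 21 of a list of cell cycle genes were lower in replicate 2, 9 of them called, or 42.9% against 24.7% of all genes, with a median of -2.05. In C1 against WT with the block, 18 of the 21 were lower, 1 of them called (4.76% against 7.03% of all genes), with a median of -0.74. In C2 against WT 12 were lower and none was called, with a median of -0.06, and C2 lay above C1 for 20 of the 21, none called, with a median of 0.78. MKI67, for example, had 209.7 and 66.5 CPM in the WT libraries, 179 and 10.6 in those of C1, and 258 and 56.8 in those of C2. Their part in the differences of the lysosome genes was not tested. Without C2 replicate 1, the replicate comparison called 2 of the 17 lysosome genes, NPC2 and PSAP, and without C2 replicate 2 it called these and GUSB. Without any one of the other 4 libraries, 14 or 15 of the 17 remained called. With no group term, 1 of the 40 genes was called.

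Other genes of the same pathway were counted from lists, with no test of a list as a whole. Without the block none of them was called in C1 or C2. With it, 7.03% of all genes tested were called in C1, 4.54% in C2 and 9.74% in their mean. Of 36 other lysosomal hydrolases and activators tested, 4 rose and 2 fell in each clone with the block (16.7% called), and 5 rose and 5 fell in the mean (27.8%), with medians of 0.10 in C1 and 0.03 in C2. SIAE, a sialic acid esterase, had 26.5 and 36.5 CPM in the WT libraries, 8.73 and 11.1 in those of C1, and 7.51 and 11.4 in those of C2 and fell in both clones (-1.66 (adjusted p 0.000274) and -1.74 (adjusted p 0.000268)). RNASET2, a ribonuclease, HYAL1, a hyaluronidase, and PPT2, a thioesterase, rose in both. HYAL1 had 11.2 and 20.2 CPM in the WT libraries, 21.1 and 36.1 in those of C1, and 16.3 and 53.8 in those of C2 (0.88 (adjusted p 0.0442) and 1.01 (adjusted p 0.0335)), PPT2 had differences of 0.92 (adjusted p 0.0138) and 0.80 (adjusted p 0.0357), and RNASET2 of 0.86 (adjusted p 0.0298) and 0.86 (adjusted p 0.0403). Of 30 other lysosomal membrane genes, 2 rose in C1 (6.67%), 1 in C2 (3.33%) and 2 in the mean (6.67%), and none fell. Counts this small do not set these shares apart from those over all genes. TPCN1, a calcium and sodium channel, rose in both clones (0.64 (adjusted p 0.0376) and 0.68 (adjusted p 0.039)). LMBRD1, which takes part in cobalamin export, rose in C1 (0.56 (adjusted p 0.0482)).

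Of 22 subunits and accessory proteins of the proton pump, none was called in C1 and 1 rose in C2, ATP6V0A4 (1.30 (adjusted p 0.0342)), a share of 4.55% in C2 and in the mean, with medians of -0.05 and 0.03. None of 19 genes for mannose 6-phosphate tagging and sorting was called in either clone or in their mean, with medians of -0.04 and -0.03. Of 19 genes that place mTORC1 on the lysosome or control it there, TSC1, which restrains mTORC1, rose in C1 (0.56 (adjusted p 0.0414)), 5.26% of the list, none was called in C2, and 1 rose and 1 fell in the mean. Of 32 autophagy genes, ATG9B, ULK1 and ATG14 rose in C1, ATG9B alone was called in C2, 2 rose in the mean, and none fell (9.38%, 3.12% and 6.25% called). ATG9B, a lipid scramblase of the autophagosome precursor, had 13.3 and 20.7 CPM in the WT libraries, 42.7 and 72.5 in those of C1, and 33.0 and 59.6 in those of C2, with all clone libraries above WT (1.75 (adjusted p 5.12e-05) and 1.42 (adjusted p 0.000276)). ULK1, the kinase that starts autophagy, was at 0.74 (adjusted p 0.0242) in C1 and 0.13 (adjusted p 0.762) in C2. Of 7 protease inhibitors tested, 1 rose and 1 fell in C1, in C2 and in the mean (28.6% called in each). The shares over all genes were 7.03%, 4.54% and 9.74%. SLPI, a secreted inhibitor of serine proteases, had 2.69 and 6.93 CPM in the WT libraries, 0.113 and 0.468 in those of C1, and 0.281 and 0.619 in those of C2. It fell in both clones (-4.09 (adjusted p 5.61e-05) and -3.40 (adjusted p 0.000223)). SERPINB6, an intracellular serpin, rose in both (0.69 (adjusted p 0.0136) and 0.58 (adjusted p 0.0406)). Among 8 surfactant and type II cell genes, ABCA3, the lipid transporter of lamellar bodies, rose in C1 (1.06 (adjusted p 0.0196)). NAPSA, an aspartic protease that processes surfactant protein B, fell in C1 (-1.04 (adjusted p 0.0329)). None was called in C2, and 1 rose and 1 fell in the mean, so 25%, 0% and 25% of the list were called. ABCA3 had 3.61 and 20.9 CPM in the WT libraries, 5.23 and 59.1 in those of C1, and 4.11 and 40.3 in those of C2, so replicate 2 was the higher library in all groups. Between replicate numbers, where 24.7% of all genes were called (12.5% higher and 12.2% lower), the called genes of these lists were 10 higher and 1 lower among the other hydrolases (30.6%), 5 and 1 among the other membrane genes (20%), 0 and 3 of the proton pump (13.6%), 3 and 2 in sorting (26.3%), 2 and 0 of 19 in mTORC1 docking, and 7 and 0 in autophagy (21.9%).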

How the data were processed

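RNA was measured in 6 libraries, and the authors deposited raw read counts per gene, per the file headers. Tools listed in the submitters' processing notes are HTSeq 0.5.3, STAR 2.5.0a and cutadapt 1.6, with build hg19 and no strand setting. The 5 rows that name no gene held 21.3% to 22.4% of each library's reads and were left out. In R 4.3.3, edgeR 4.0.16 with limma 3.58.1 tested the counts: filterByExpr over the 3 groups, TMM scaling, robust quasi-likelihood F tests over all 6 libraries and Benjamini-Hochberg adjustment. DESeq2 1.42.0 was an alternative. Each SE is the absolute log2 difference divided by the square root of the F statistic, and the 95% intervals were built from it. CPM values are TMM-scaled. The scripts were tested on simulated data. The depth was 27527867 to 37146270 gene counts, and floors cover counting error only.

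The labels give each group replicates 1 and 2 without saying what the number marks. Deviations from group means of same-numbered libraries, from log2 CPM with a prior count of 2, correlated by 0.584 (WT and C1), 0.634 (WT and C2) and 0.701 (C1 and C2), and the libraries were therefore treated as paired. No label supports this pairing, and deviations of 2 libraries a group are mirror images. The block leaves 2 residual degrees of freedom, the fit without it 3.

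The 40 genes and the other lists were chosen with earlier results of these data known. Values in every library are given for genes called in any comparison with or without the block, for all cathepsins and for TFEB and TFE3. The other genes are given by group means. Up to 4 genes are named per other list, those called with the block in C1 or C2 with the largest mean difference. MKI67, IFIT2, the chromosomal neighbours and the call of GAA between the clones were added after their values were seen. Gene order, exon lengths and overlaps came from GENCODE 29, which uses GRCh38, and its coordinates are not given. Promoters came from RefSeq (GRCh38.p14). Alternatives were DESeq2, its size factors in edgeR, no filter, the block, and leaving out each library.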

Additional observations from a re-analysis of the deposited data

How the results depend on the processing

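No result changed direction past the threshold under any alternative. The number of the 40 lysosome genes called in C1 was 0, and it was 3 with no low-count filter and 3 by DESeq2. In C2 it was 0, and 1 with no filter and 1 by DESeq2. In the mean of the clones it was 1, and 3 with no filter and 3 by DESeq2. With DESeq2's size factors in edgeR it stayed at 0, 0 and 1. Leaving out each library in turn gave 0 in all 3 comparisons. Over all genes tested, the calls were 2 in C1, 2 in C2 and 34 in the mean, and became 296, 209 and 436 with no filter, 260, 207 and 379 by DESeq2, and 0 to 1, 0 to 0 and 0 to 3 without each library. Many settings thus differ by more than 1.5 times, and the cause was not tested.

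With the replicate block, edgeR called 8, 5 and 16 of the 40 genes in C1, C2 and the mean, and 1204, 777 and 1669 of all genes. DESeq2 with the block called 9, 8 and 16 of the 40 and 1164, 833 and 1506 of all genes. Alternatives with the block chosen after seeing the data gave 8, 5 and 15 of the 40 with DESeq2's size factors and 15, 13 and 20 with no filter. With the block and without WT replicate 1, WT replicate 2, C1 replicate 1, C1 replicate 2, C2 replicate 1 and C2 replicate 2 in turn, the counts were 12, 7, 8, 10, 1 and 1 in C1, 8, 3, 13, 14, 1 and 1 in C2, and 14, 8, 17, 16, 1 and 1 in the mean. Between C2 and C1, 0 of the 40 were called in every setting but the block without C1 replicate 1, which called 2 (range 0 to 2). Over all genes, no calls between the clones were made by edgeR with or without the block or by DESeq2, 20 by DESeq2 with the block, 90 with the block and no filter, and 0 to 343 with the block and without each library. The calls of the 40 genes changed by the block itself, with all 6 libraries and the filter, are given beside each gene, and it changed no others. Some alternatives with the block also called genes that it did not, and those calls against WT are not given beside each gene. With no filter, these were CTSB, CTSF, CTSO, CTSZ, GLB1, IDS and NPC2 in C1. In C2 they were CTSB, CTSO, CTSS, FUCA1, GUSB, MCOLN2, NEU1 and PSAP.

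Between replicate numbers, 17 of the 40 genes were called, 1 with no group term and 2 to 22 without each library. Over all genes the count was 4229, 2017 with no group term and 617 to 4849 without each library, the lowest from leaving out either C2 library. CTSH kept a negative difference from WT in every setting. MCOLN2 and MCOLN3 rest on few reads in the clones, and CTSH on 17 in C1 and 23 in C2. What difference between the clones these reads could show was not tested.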
